A study of Homo sapiens with 8 samples.

Results

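Coding sequences of at least 6000 nt were followed in 8 ribosome profiling (Ribo-seq) libraries from the human ovarian cancer line OVCAR3. Of the 20165 merged gene regions counted by the authors, 449 had a coding sequence of that length. The members were chosen by a length of at least 6000 nt and at least 400 coding reads summed over the 8 libraries, leaving out AHNAK, AHNAK2, MUC4, MUC16, VCAN and symbols that begin with COL or LAM. That left 277 regions. A further 9 long regions with enough reads were removed by name and 163 fell below 400 reads, among them 43 with none. Length and summed reads therefore chose the members and are described here without a test.

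Ribo-seq reads the fragments that ribosomes protect from RNase digestion, so a footprint count depends on how much of an mRNA is present and on how many ribosomes it carries. A ribosome needs several minutes to cross a very long open reading frame, and such mRNAs hold many ribosomes at a time. The proteins they encode are mostly large scaffolds and machines: filamins, spectrins, plakins and nesprins of the cytoskeleton, dynein heavy chains, giant ubiquitin ligases, chromatin regulators, kinases of the DNA damage response, and endocytic and adhesion receptors of the cell surface. RACK1, a component of the 40S ribosomal subunit, binds signalling proteins. It can be modified with single ADP-ribose units (MARylation), and TARG1, encoded by OARD1, is a hydrolase that removes them.

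In the first experiment OVCAR3 cells were transfected with 30 nM control siRNA (siControl) or siRNA against OARD1 (siTARG1). In the second, endogenous RACK1 was knocked down by a doxycycline-inducible shRNA in cells that re-expressed HA-tagged RACK1 in its wild-type form (RACK1-WT) or a form with mutated MARylation sites (RACK1-Mut), all under 1 µg/ml doxycycline, so that all cells of the second experiment carried the knockdown and the transgene. Every group had 2 libraries harvested after 48 h, and the RACK1 cells were selected transduced populations. The study's methods describe its sequencing replicates as independent biological samples, and with 2 libraries a group the spread between them is poorly known. RNA-seq was not analysed here, so a change in footprints is not a change in translation efficiency.

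Coding reads summed to between 3100947 and 6604190 in a library. OARD1 checked the siRNA label: its normalized counts were 121 and 69.1 in siControl and 5.83 and 6.75 in siTARG1. In RACK1-Mut, footprints on RACK1 itself stood at 74.6% of RACK1-WT (log2 fold change -0.42 ± 0.06 SE, adjusted p = 1.34e-08 by DESeq2), which sums endogenous and re-expressed RACK1. Epithelial and ovarian markers (PAX8, WT1, EPCAM, KRT7, KRT8, KRT18, MUC16 and MSLN) had from 73 to 18607 coding reads in every library, whereas PTPRC, which marks leukocytes, had between 0 and 2. PECAM1 was not matched to a region by name. COL1A1 and ACTA2, which mark fibroblasts and smooth muscle, had 58 to 231 and 36 to 114 reads.

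Names came from GENCODE release 44 on GRCh37: 267 members carried 1 symbol, 7 joined transcripts of several symbols and mix their reads, and 3 had no symbol and are counted without a name. The members had a median coding length of 7701 nt and 57 reached 10000 nt. Their summed reads ran from 401 to 62466 with a median of 2831, so that the 10 with most reads held 25.4% of all 1394937. Reads could have many hits in the alignment, so members with close paralogs or pseudogenes, such as NOTCH2, RANBP2, HERC2 and SMG1, are uncertain. Each region is one count over its whole coding sequence, and where along it the footprints lay was not examined.

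Just inside the read threshold lay PTPRZ1 with 401 reads and ZDBF2 with 416, and just outside it DOCK10 with 390 and DOCK8 with 374. Just inside the length threshold lay MICAL3 at 6009 nt and SMCHD1 at 6018 nt, and just outside it SHROOM3 at 5991 nt and TANC2 at 5973 nt. In siTARG1 over siControl the log2 fold changes of the regions just inside were -1.96 for PTPRZ1, 1.05 for ZDBF2, 0.50 for MICAL3 and -0.78 for SMCHD1. Those just outside were 0.23 for DOCK10, -1.45 for DOCK8, -1.17 for SHROOM3 and 0.05 for TANC2.

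Members are shown by sequence where their sequence moved with the measurements. In siTARG1 cells, members with fewer footprints often held a short word in their 3′ UTR. The word is TGAACAT or GAACATA, the overlapping 7-mers of TGAACATA, searched on the mRNA strand. It was taken from earlier results of these data, so its frequency among regions that fell is a description. The members shown were picked for holding the word, which FLG and PTPRZ1, the members that fell most, did not hold. FREM2 and MGA also held a 7-mer of TGAATATA, a second word described further below. The first 5 windows below lie in the 3′ UTRs of members that fell and the last 2 in members that rose. The word is in capitals (GRCh37, 5′ to 3′ on the strand given).
ZFYVE26, chr14:68213485-68213514, minus strand: cttttttgcacTGAACATAagcactttata
TTC3, chr21:38575339-38575368, plus strand: tcagatacttgTGAACATgccttatatttg
FREM2, chr13:39456880-39456909, plus strand: ttgtatgggaaTGAACATgaattagggaac
NAV2, chr11:20142242-20142271, plus strand: tgcctgattggTGAACATtgacttcaagta
MAP1B, chr5:71501305-71501334, plus strand: ttcatctctgcTGAACATttggaaaccatg
TENM3, chr4:183723161-183723190, plus strand: aatatagcaagTGAACATgtcgtaaatata
MGA, chr15:42059725-42059754, plus strand: tgatccattacTGAACATgaggtgcccctc

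Codon usage differed widely among the members. The share of codons that end in G or C (GC3) ran from 26.7% to 88.9% over the 274 members with an annotated coding sequence. Windows of 30 codons from the start of the longest coding exon show both ends of that range, with each G or C at the last position of a codon in capitals. The first 2 are from the G- and C-rich FLNA (GC3 of 76.6% over the whole coding sequence; 25 of 30 codons here) and HSPG2 (76.7%; 25 of 30). The last is from CENPE (31.7%; 6 of 30).
FLNA codons 1070 to 1099, chrX:153588866-153588955, minus strand: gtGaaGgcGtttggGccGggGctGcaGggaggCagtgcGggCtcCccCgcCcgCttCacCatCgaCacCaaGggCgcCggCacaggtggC
HSPG2 codons 3486 to 3515, chr1:22161347-22161436, minus strand: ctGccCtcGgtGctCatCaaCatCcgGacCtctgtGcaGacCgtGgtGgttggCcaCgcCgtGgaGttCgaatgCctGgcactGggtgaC
CENPE codons 763 to 792, chr4:104080392-104080481, minus strand: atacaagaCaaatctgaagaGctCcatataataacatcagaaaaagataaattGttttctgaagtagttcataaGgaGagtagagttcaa

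Per unit length, footprints on the members were sparse. The median over the 8 libraries of the authors' RPKM (reads scaled to region length and library alignments) was highest, at 121, in AGRN, which encodes the basement membrane proteoglycan agrin. FLNA, an actin crosslinker, followed AGRN at 94.0, then came FASN, the fatty acid synthase, at 56.8, SNRNP200, a helicase of the spliceosome, at 54.5 and TLN1, which links integrins to actin, at 37.9. The median member stood at 4.04 RPKM, against 13.8 in the other 8514 regions with at least 400 reads. A fixed read threshold admits long sequences at lower density than short ones, so that gap follows in part from the rule.

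Long coding sequences took a larger share of all coding footprints in siTARG1 libraries than in siControl libraries. The share was 4.24% and 4.16% in siTARG1 against 3.99% and 3.75% in siControl. The groups did not overlap and differed by 0.329 percentage points, but with 2 libraries against 2 the exact two-sided permutation test cannot go below p = 0.333, which is the value it gave. The siControl libraries themselves lay 0.240 percentage points apart. The difference was 0.17 percentage points with the excluded names put back and 0.062 when only coding sequences of at least 8000 nt were taken. In the RACK1 experiment the shares were 3.86% and 3.90% in RACK1-WT and 3.80% and 3.88% in RACK1-Mut, which overlapped (difference -0.042 percentage points, exact permutation p = 0.667).

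**Figure D1:**
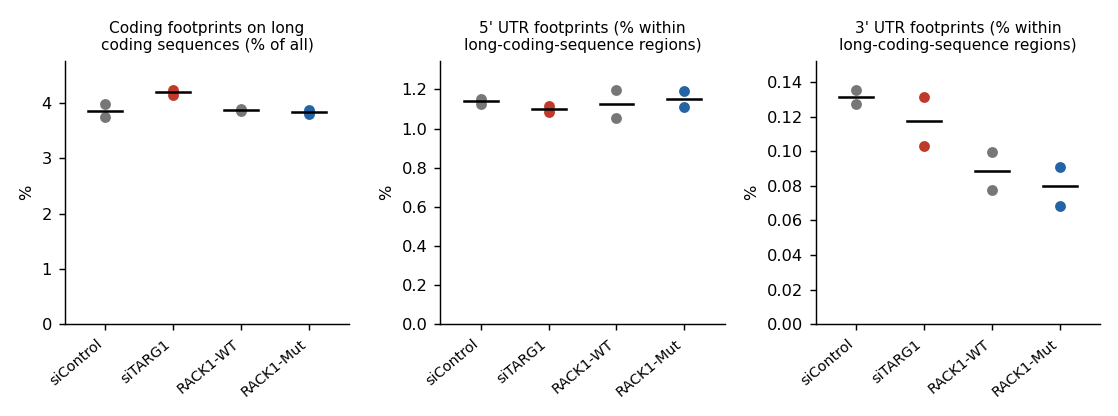
Share of footprints in % by group, with 1 point for each library and a bar at the group mean (n = 2). Left, coding footprints on long coding sequences among all coding footprints, where the siTARG1 libraries (4.24% and 4.16%) lie above siControl (3.99% and 3.75%). Middle and right, 5′ UTR and 3′ UTR footprints within the regions of the long coding sequences, where the largest group difference was 0.038 percentage points.

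Within the same regions, footprints in the untranslated parts were few. The 5′ UTR held 1.13% and 1.15% of the regions' footprints in siControl, 1.09% and 1.117% in siTARG1, 1.06% and 1.20% in RACK1-WT and 1.11% and 1.19% in RACK1-Mut. Per nucleotide, the 5′ UTRs of the members were covered at 28.9% to 32.7% of the density of their coding sequences, above the 19.7% to 22.4% of the other regions with at least 400 reads. These values are divided by coding density, which was lower in the members: 69.1 reads per kb against 269 in the other regions in siControl replicate 1. The read threshold admits long sequences at low coding density, so the gap may follow in part from the rule. It was not tested. The 3′ UTR of the members held 0.069% to 0.135% of footprints in a library, at 0.309% to 0.611% of coding density. In the other regions it held 0.481% to 1.03%, at 0.459% to 0.988% of coding density. Both siTARG1 libraries lay below both siControl libraries in 5′ UTR share. The exact permutation test gave p = 0.333 there, the smallest value it can give with 2 libraries against 2. In the RACK1 comparison the 5′ UTR shares overlapped (exact permutation p = 1). The 3′ UTR shares overlapped in both comparisons (exact permutation p = 0.667 in each). With 2 libraries a group the exact permutation test cannot pass, so it does not decide whether these shares differed.

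Knockdown of TARG1 moved the long coding sequences in both directions. Of the 277 members, 74 were called at an adjusted p under 0.05 by DESeq2, 35 with more footprints in siTARG1 and 39 with fewer. Over all 12056 regions tested, 16.4% were called (7.18% higher and 9.19% lower), against 26.7% of the members, and 20.9% of the other regions with at least 400 reads were called. Members were selected to have reads, which eases calling, so the other regions above the same read threshold are the nearer background. They were not matched to the members in the number of reads. The members' log2 fold changes had a median of 0.08 against 0.00 over all regions, with the middle 50% between -0.18 and 0.28. For 203 members (73.3%) both siTARG1 libraries lay on the same side of both siControl libraries, against 62.6% of all regions tested and 67.1% of the other regions with at least 400 reads. All 74 called members were among them. The count rested on all 4 libraries, and fewer members were called with any 1 of them left out. It rested on the test as well: the edgeR quasi-likelihood test called 124 members (44.8%). The share of all regions that edgeR called is not given here, so its count cannot be set against a background.

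The median shift towards siTARG1 was higher in longer classes up to 10000 nt, by most below 6000 nt, and lower again in the longest class. In regions with at least 400 reads the median log2 fold change was -0.07 below 900 nt (n = 2180), -0.03 from 900 to 1500 nt (n = 2345), 0.03 from 1500 to 3000 nt (n = 2834) and 0.08 from 3000 to 6000 nt (n = 1155). Among the members it was 0.08 from 6000 to 8000 nt (n = 152), 0.10 from 8000 to 10000 nt (n = 68) and 0.04 from 10000 nt (n = 57). Spearman's rho of fold change with length was -0.03 across the members and 0.12 across the other regions, as a description over regions that share 4 libraries. In the other regions siTARG1 libraries gave rho of 0.09 and 0.07 against siControl replicate 1, and 0.16 and 0.14 against siControl replicate 2. Between siControl replicate 2 and replicate 1 it was -0.15, and what the replicates contribute to the trend with length was not tested. The replicates bear on the median shift as well. Over the members, siControl replicate 2 lay 0.069 (log2) below siControl replicate 1. The 4 pairs of a siTARG1 with a siControl library gave medians from 0.052 to 0.125. In the RACK1 comparison no length class had a median beyond 0.03 in size.

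**Figure D2:**
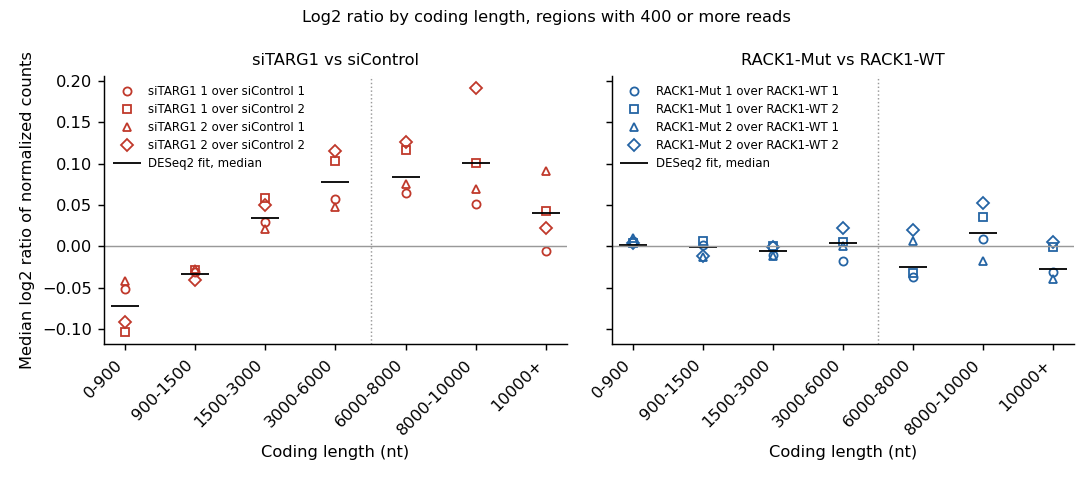
Median log2 ratio of normalized counts in classes of coding length (nt), for siTARG1 over siControl (left) and RACK1-Mut over RACK1-WT (right). Open symbols are the 4 pairs of libraries, black bars the median of the DESeq2 fold changes, and the dotted line marks 6000 nt. In siTARG1 the median runs from -0.07 in the shortest class to 0.10 at 8000 to 10000 nt, and in RACK1-Mut it stays within 0.03 of 0.

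The largest rises in siTARG1 were in CSPG4, MYCBP2 and PCLO. CSPG4, which encodes the surface proteoglycan NG2 (chr15:75966663-76005189), had normalized counts of 41.3 and 28.6 in siControl and 111 and 88.8 in siTARG1, a log2 fold change of 1.5 ± 0.36 (SE; DESeq2 adjusted p = 0.000534). MYCBP2, a giant RING ubiquitin ligase known for its part in axon development (chr13:77616609-77901229), had 36 and 39.3 against 106 and 102 (1.47 ± 0.34, DESeq2 adjusted p = 0.00028). PCLO, a scaffold of the presynaptic active zone, had 43.9 and 40.5 against 107 and 110 (1.36 ± 0.33, DESeq2 adjusted p = 0.000533). These lay below the members' median density, at 1.67, 0.766 and 0.364 RPKM, yet the lower siTARG1 library lay above the higher siControl library for each of them. The calls rested on few counts: PCLO was called in none of the fits with 1 library left out, MYCBP2 only without siControl replicate 2 and CSPG4 only without siControl replicate 1 or siTARG1 replicate 2.

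TEX15, a germ-line gene known for meiotic recombination, had 54.5 and 57.2 in siControl and 137 and 112 in siTARG1, a log2 fold change of 1.16 ± 0.30 (DESeq2 adjusted p = 0.0016). MGA, a transcription factor that dimerizes with MAX (chr15:41913332-42065279), had 166 and 151 against 330 and 351 (1.1 ± 0.19, DESeq2 adjusted p = 1.23e-07). HSPG2 encodes perlecan, a heparan sulfate proteoglycan of basement membranes (chr1:22148737-22263803), and its counts of 656 and 559 rose to 1269 and 1102 (0.96 ± 0.12, DESeq2 adjusted p = 8.13e-14). In each of these genes both siTARG1 libraries lay well above both siControl libraries, though TEX15 was called in none of the fits with 1 library left out.

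MPDZ, a scaffold with many PDZ domains at cell junctions, rose from 180 and 252 to 374 and 453 (0.94 ± 0.19, DESeq2 adjusted p = 1.62e-05), a call lost without siControl replicate 1 or siTARG1 replicate 2. CNOT1 is the backbone of the CCR4-NOT complex, which shortens poly(A) tails (chr16:58553855-58663789). It rose from 396 and 322 to 678 and 674 (0.91 ± 0.14, DESeq2 adjusted p = 5.54e-09). The region that joins RAPGEF6 and FNIP1 also rose (0.86), and its reads cannot be given to either gene.

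The largest falls were in FLG and PTPRZ1. FLG, which encodes filaggrin of the cornified epidermis (chr1:152274641-152297715), had 184 and 104 normalized counts in siControl and 40.8 and 29.2 in siTARG1, a log2 fold change of -2.03 ± 0.36 (DESeq2 adjusted p = 4.3e-07). PTPRZ1, a receptor tyrosine phosphatase best known in glia, had 83.5 and 63.2 against 15.8 and 22.5 (-1.96 ± 0.44, DESeq2 adjusted p = 0.000182). FREM2, a matrix protein of the Fraser complex (chr13:39261214-39461268), had 125 and 117 against 46.6 and 33.7 (-1.58 ± 0.33, DESeq2 adjusted p = 3.4e-05). In each, siTARG1 stood at between 24.4% and 33.3% of the siControl mean, and FLG's siControl libraries differed most from each other. Without siControl replicate 1 none of the 3 was called, and PTPRZ1 was also not called without siTARG1 replicate 1.

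CMYA5, a muscle protein that binds desmin and calcineurin, had 159 and 165 in siControl and 64.1 and 47.2 in siTARG1 (-1.53 ± 0.28, DESeq2 adjusted p = 2.3e-06). TTC3, a ubiquitin ligase that acts on AKT (chr21:38445526-38575413), had 271 and 290 against 85.7 and 129 (-1.39 ± 0.23, DESeq2 adjusted p = 4.2e-08). ZFYVE26, known as spastizin and for its part in lysosome recovery (chr14:68194091-68283307), had 265 and 261 against 107 and 111 (-1.28 ± 0.21, DESeq2 adjusted p = 6.49e-08). The replicates of ZFYVE26 were nearly alike in each group, and those of TTC3 in siTARG1 were not.

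PIKFYVE, the kinase that makes phosphatidylinositol 3,5-bisphosphate on endosomes, had 267 and 269 against 148 and 136 (-0.91 ± 0.20, DESeq2 adjusted p = 9.59e-05), and was not called without siControl replicate 1 or siTARG1 replicate 2. PIKFYVE and ZFYVE26 share the FYVE type of domain, which binds phosphoinositides on endosomes, and both encode proteins of the endolysosomal system.

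**Figure D3:**
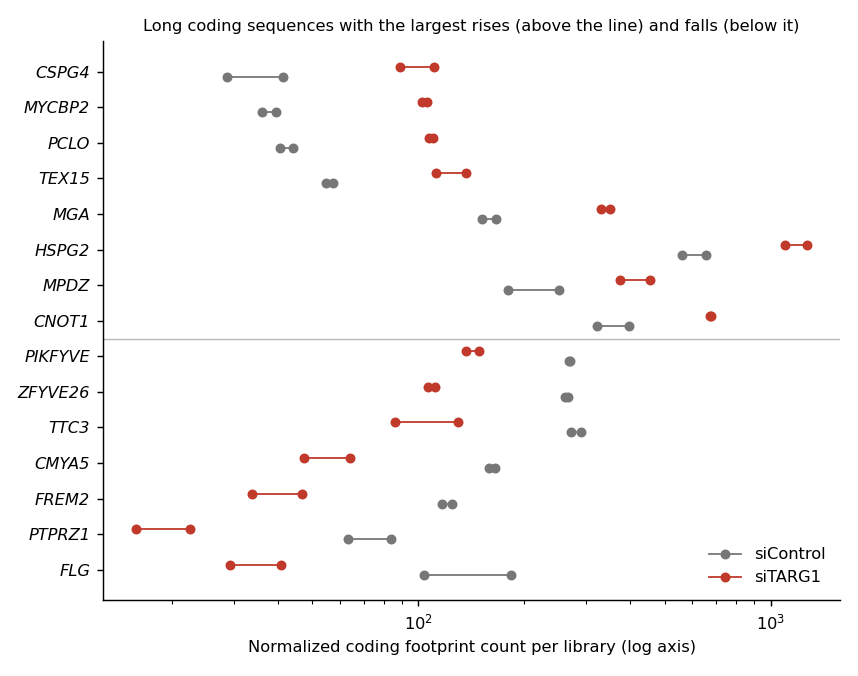
Normalized coding footprint counts (log axis) of the named long coding sequences with the largest rises (top 8) and falls (bottom 7), with 1 point for each library and a line joining the libraries of a group. In all 15 the siTARG1 and siControl libraries do not overlap, from FLG at 40.8 and 29.2 against 184 and 104 to HSPG2 at 1269 and 1102 against 656 and 559.

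Of the 5 members with most reads, 4 were called. AGRN rose from 5135 and 4310 in siControl to 7381 and 6836 in siTARG1 (log2 0.59 ± 0.14, DESeq2 adjusted p = 0.000251). FLNA stood at 5617 and 5182 against 6237 and 5996, just past the threshold (0.18 ± 0.07, DESeq2 adjusted p = 0.0465), and was not called with any 1 library left out, with TMM factors, exon counts or a minimum of 10 counts in every library. FAT2, an atypical cadherin that guides epithelial migration (chr5:150883653-150970892), had the smallest adjusted p of all members: its counts of 4351 and 3959 fell to 2406 and 2503 (-0.76 ± 0.08, DESeq2 adjusted p = 3.1e-21). HUWE1, a HECT ubiquitin ligase, fell from 3420 and 3263 to 2698 and 2615 (-0.33 ± 0.07, DESeq2 adjusted p = 0.000101). FASN, at 3623 and 3365 against 3218 and 3019, did not pass (-0.16 ± 0.08, DESeq2 adjusted p = 0.123).

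Of the 57 members from 10000 nt, 20 were called (7 higher and 13 lower), a share of 35.1% against 26.7% of all members. Among the longest of them, SYNE1, DST, MACF1 and SYNE2 were not called. SYNE1 (26758 nt), the nesprin that ties the nucleus to the cytoskeleton, had counts of 40.4 and 37 in siControl and 31.6 and 31.5 in siTARG1 (log2 -0.30 ± 0.46). DST (23452 nt) and MACF1 (22897 nt), which are spectraplakins that crosslink actin and microtubules, gave 0.36 ± 0.19 and 0.27 ± 0.19, and SYNE2 (20727 nt), a nesprin like SYNE1, gave -0.21 ± 0.10. The libraries of the groups did not overlap for any of these 4, but their DESeq2 adjusted p-values ran from 0.136 to 0.747.

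The members were sorted by hand into 14 functional groups holding 240 of them, with 37 left ungrouped. The share called in a group ran from 0% of 3 megasynthases to 55.6% of 9 extracellular matrix members. It was 26.7% of all members, 20.9% of the other regions with at least 400 reads and 16.4% of all regions tested. Most groups are small, and their shares were not tested against these. The 55 chromatin and transcription regulators had 4 members called higher and 5 lower, a share of 16.4% and a median log2 fold change of 0.06. MGA rose most, followed by CREBBP (0.66), a histone acetyltransferase, and ZFHX4, a homeobox and zinc finger factor, fell most (-0.83 ± 0.18, DESeq2 adjusted p = 4.83e-05). SMCHD1, which acts in X inactivation, also fell (-0.78).

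Of 27 actin, spectrin, plakin and myosin scaffolds, 5 were called higher and 2 lower (25.9% called), with a median of 0.18. PLEC, the intermediate filament linker plectin, rose from 815 and 693 to 1132 and 1094 (0.56 ± 0.11, DESeq2 adjusted p = 1.34e-05), and UTRN, the dystrophin relative utrophin, fell from 420 and 428 to 285 and 261 (-0.63 ± 0.16, DESeq2 adjusted p = 0.000807). Of the 22 dynein heavy chains, centrosome and spindle proteins, 1 was called higher and 5 lower (27.3% called), with a median of -0.12. Both shares are close to the 26.7% of all members, and the difference between these groups was not tested. MAP1B, a microtubule-associated protein of neurites, fell from 357 and 335 to 212 and 195 (-0.76 ± 0.18, DESeq2 adjusted p = 0.000224). The other members of this set called lower were NIN (-0.74), MKI67 (-0.74), ASPM (-0.63) and CENPE (-0.52), proteins of the centrosome, the mitotic chromosome surface, the spindle pole and the kinetochore. NUMA1, which organizes spindle poles, was the member called higher (0.35 ± 0.09, DESeq2 adjusted p = 0.00137).

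The receptors were led by TENM3 and PTPRZ1, with 3 of 17 called in each direction and a median of 0.23. TENM3, a teneurin that acts in cell adhesion, rose from 1455 and 1506 to 2280 and 2246 (0.61 ± 0.08, DESeq2 adjusted p = 4.54e-12). IGF2R (0.33) and SORL1 (0.60), which carry ligands from the Golgi and endosomes, rose as well, and the atypical cadherins FAT1 (-0.53) and FAT2 fell. In the extracellular matrix group 2 of 9 were called higher (HSPG2 and AGRN) and 3 lower (FREM2, FN1 at -0.41 and TNC at -0.38), of which FN1 and TNC encode fibronectin and tenascin-C. Among these called members HSPG2 and AGRN thus moved up, and FREM2, FN1 and TNC moved down. With 1 library left out, FN1 and TNC were called in no fit.

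Among 19 giant ubiquitin ligases and deubiquitinases, 2 were called higher (MYCBP2 and BIRC6, at 0.37) and 4 lower (among them HERC1 at -0.73, HUWE1 and TRIP12 at -0.25). Of the 22 members in lipid transfer, vesicle trafficking and autophagy, 3 were called higher and 4 lower. FRYL had the largest fold change upward (0.49 ± 0.19, DESeq2 adjusted p = 0.045), but was not called without the filter on low counts or with any 1 library left out, where it ran from 0.33 to 0.68. ZFYVE26 fell most. The 22 GTPase regulators, kinases and signalling scaffolds had 4 called in each direction, and among the called PCLO had the largest rise and NAV2, which steers neurite growth, the largest fall (-0.83 ± 0.25, DESeq2 adjusted p = 0.0085). NF1, the RAS GTPase-activating protein neurofibromin, fell in the same set (-0.68, DESeq2 adjusted p = 1.11e-10).

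RNA processing and translation members had 2 of 15 called in each direction: CNOT1 and UTP20 (0.50), which acts in ribosome assembly, were higher, and ZNFX1 (-0.30) and the joint region of ANKHD1 and EIF4EBP3 (-0.79) were lower. Ion channels and membrane transport had 2 of 11 in each direction, and among the called ABCA1, the cholesterol exporter, stood highest (0.50 ± 0.16, DESeq2 adjusted p = 0.0154) and MYOF, a ferlin of membrane repair, lowest (-0.53 ± 0.12, DESeq2 adjusted p = 0.000213). Of 7 DNA replication and repair members, MDC1 (0.62 ± 0.15, DESeq2 adjusted p = 0.000519), an adaptor of the DNA damage response, and POLE (0.61), the catalytic subunit of a replicative DNA polymerase, were called higher and none lower. The 7 did not move together: 4 lay above 0, and their fold changes ran from -0.69 to 0.75. PRKDC, the catalytic subunit of DNA-PK, was the 1 of 7 PI3K-related kinases called (0.20 ± 0.07, DESeq2 adjusted p = 0.0287), and RANBP2 the 1 of 4 nuclear pore proteins (0.29 ± 0.10, DESeq2 adjusted p = 0.0235). None of the 3 megasynthases was called.

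**Figure D4:**
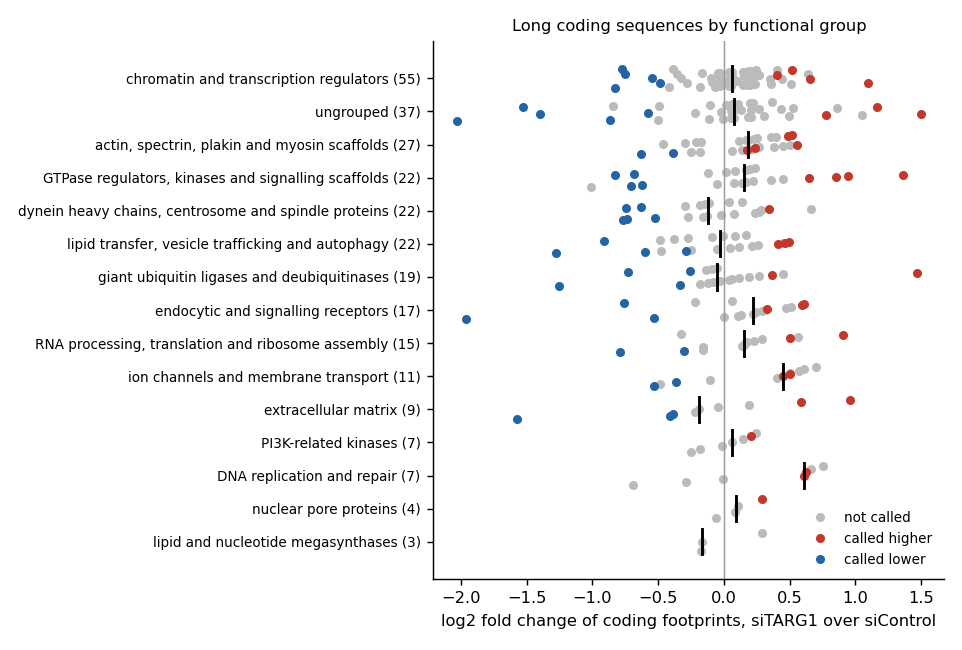
Log2 fold change of coding footprints in siTARG1 over siControl for the 277 long coding sequences, 1 point each, by functional group with the number of members in brackets. Black bars are group medians, which run from -0.19 in the extracellular matrix group to 0.61 in DNA replication and repair (4 of 7 members above 0). Coloured points are the 35 members called higher and 39 called lower.

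The 3′ UTR words shown above were unevenly spread over the calls. Of members with an annotated 3′ UTR, 17 of 38 called lower (44.7%) held a 7-mer of TGAACATA, against 5 of 34 called higher (14.7%) and 34 of 200 not called (17.0%). Over all 18601 regions with a 3′ UTR the share was 16.4%. A second word from the earlier results, TGAATATA, was held by 8 of 38 lower (21.1%), 11 of 34 higher (32.4%) and 55 of 200 uncalled members (27.5%), against 21.2% of all regions. The 32 members with the first word alone had a median log2 fold change of -0.14, the 50 with the second alone 0.19, the 24 with both -0.04 and the 166 with neither 0.13. Longer 3′ UTRs hold any word more often: members called lower had a median 3′ UTR of 1908 nt, those called higher 1135 nt and the rest 1300 nt. The other regions with at least 400 reads called lower, called higher and not called held the first word in 37.4%, 14.2% and 16.4%, and the second in 23.7%, 47.4% and 22.7%. For the second word the share among regions called higher was thus larger outside the members (47.4%) than among them (32.4%), a difference that was not tested. Neither siRNA's sequence was in the sources used here, and what the words contribute was not tested.

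Members with the most G- and C-ending codons were more often called higher than lower in siTARG1. Members called higher had a median GC3 of 59.7%, those called lower 46.5% and the rest 48.5%. The other regions with at least 400 reads had medians of 52.5%, 55.1% and 58.4% in the same order, without that direction. In the quartile of members with the highest GC3 (64.5% to 88.9%), 13 were called higher and 3 lower, with a median log2 fold change of 0.22, and 55 of 69 lay above 0. In the other quartiles, from low to high GC3, the medians were 0.08, 0.05 and -0.03, and the calls were 6 higher and 10 lower, 6 and 13, and 9 and 12. HSPG2 and FLNA, whose windows are printed above, are in the highest quartile, and CENPE in the lowest. Across the 274 members Spearman's rho of fold change with GC3 was 0.13, and over 8413 other regions with at least 400 reads it was -0.03. Within the members the rho was 0.08, 0.21, 0.05 and 0.15 in the single library pairs, and -0.22 between siControl replicate 2 and replicate 1.

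In the RACK1 comparison no long coding sequence was called by DESeq2. Over all 12520 regions tested 10 were called (0.0799%), all lower in RACK1-Mut. At an unadjusted p under 0.05 there were 8 of 277 members, 3 higher and 5 lower, against 1.64% of all regions. The edgeR quasi-likelihood test called 1 member, a region without a symbol that stood at -0.36 in both tests (adjusted p = 0.0687 by DESeq2). The groups did not overlap for 125 members (45.1%) against 37.6% of all regions and 38.2% of the other regions with at least 400 reads. The median log2 fold change was -0.01, and the range ran from -0.40 to 0.72.

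The exclusions by name bear on that count of 0. Of the 9 long regions with enough reads that were left out by name, AHNAK2 (952 and 948 normalized counts in RACK1-WT, 569 and 493 in RACK1-Mut) and MUC4 (246 and 237 against 129 and 142) were called lower in RACK1-Mut. Their log2 fold changes were -0.84 (DESeq2 adjusted p = 3.03e-09) and -0.83 (DESeq2 adjusted p = 0.0268). In siTARG1, 3 of these 9 were called higher (AHNAK at 0.39, AHNAK2 at 2.33 and LAMA5 at 0.27) and 2 lower (VCAN at -2.11 and COL12A1 at -0.93). MUC16, LAMA1 and LAMA3 were not called in either comparison. With these names put back, 79 of 286 long regions were called in siTARG1 and 2 in RACK1-Mut.

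Among named members, those with the smallest unadjusted p in the RACK1 comparison were FBN2, AKAP9, PLCE1, HSPG2 and CMYA5, and none was called. FBN2, a microfibril protein, had 3200 and 3005 normalized counts in RACK1-WT and 2682 and 2721 in RACK1-Mut (log2 -0.20 ± 0.08). AKAP9, a scaffold for protein kinase A at the Golgi and centrosome, had 563 and 484 against 676 and 618 (0.31 ± 0.13), and PLCE1, a phospholipase C that RAS proteins activate, had 569 and 644 against 742 and 721 (0.27 ± 0.12). HSPG2 had 1695 and 1850 against 1522 and 1590 (-0.19 ± 0.09), and CMYA5 had 38.6 and 35.1 against 58.5 and 63.3 (0.72 ± 0.36). Their groups did not overlap, and each DESeq2 adjusted p was 1 after rounding.

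The members with most reads and the longest members were not called in the RACK1 comparison either. AGRN had 8462 and 10182 counts in RACK1-WT and 7766 and 8409 in RACK1-Mut (-0.20 ± 0.14), FLNA 9669 and 9521 against 8949 and 9542 (-0.05 ± 0.07), and FASN 5299 and 6343 against 4971 and 5405 (-0.17 ± 0.14). FAT2 had 4962 and 4719 against 3998 and 4656 (-0.16 ± 0.08), and HUWE1 had 4740 and 4544 against 4363 and 4697 (-0.04 ± 0.07). Of the longest, SYNE1 gave -0.28 ± 0.30, DST 0.03 ± 0.16, MACF1 -0.15 ± 0.17 and SYNE2 0.10 ± 0.09. By group, the medians of chromatin regulators (0.08) and receptors (-0.09) lay on opposite sides of 0. Above 0 lay 41 of 55 and 5 of 17 of their members, against 129 of all 277. The difference between these groups was not tested. In the extracellular matrix group the median was -0.18.

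Of the sequence features set against the RACK1 fold changes, GC3 had the largest Spearman's rho across the members (-0.46), against 0.19 for 3′ UTR length and -0.01 for coding length. From the lowest to the highest quartile of GC3 the median log2 fold change of RACK1-Mut over RACK1-WT was 0.07, 0.04, -0.05 and -0.07, and 52, 39, 21 and 17 members lay above 0. For GC3 the rho was -0.46 over 274 members and -0.19 over 8414 other regions with at least 400 reads, all measured in the same 4 libraries. The same relation stood between replicates: RACK1-WT replicate 2 over replicate 1 gave a rho of 0.51 across the members, with quartile medians from -0.09 to 0.10. The 4 pairs of a RACK1-Mut with a RACK1-WT library gave -0.21 and -0.08 against RACK1-WT replicate 1 and -0.58 and -0.51 against RACK1-WT replicate 2. The relation with GC3 was thus larger against RACK1-WT replicate 2, and the part of that library in the RACK1 values was not tested.

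**Figure D5:**
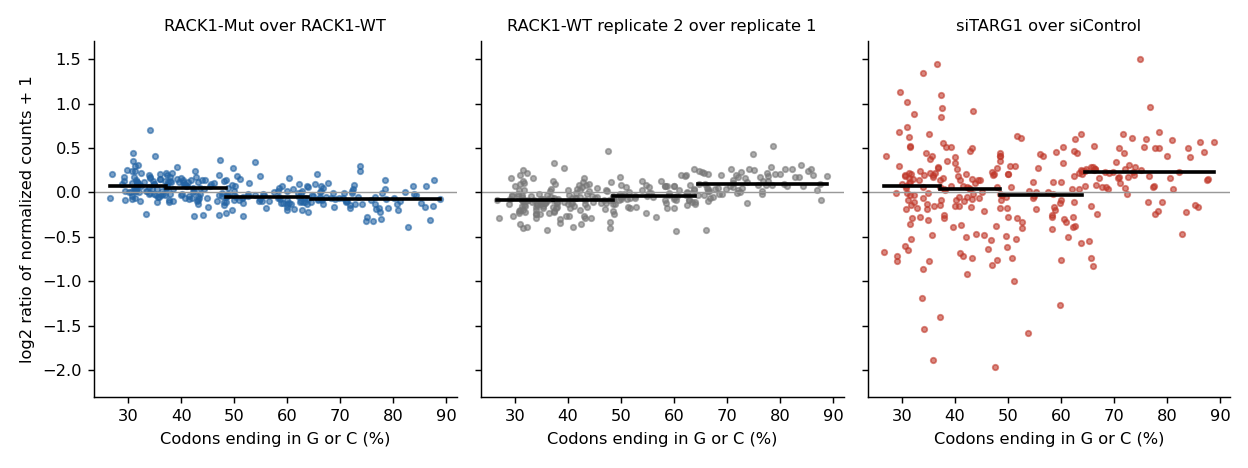
Log2 ratio of normalized counts (pseudocount of 1) against the percentage of codons ending in G or C, 1 point for each of 274 long coding sequences, with black bars at the medians of quartiles. Left, RACK1-Mut over RACK1-WT, group means of log2 values (rho of -0.46 with the DESeq2 fold change); middle, RACK1-WT replicate 2 over replicate 1 (rho of 0.51); right, siTARG1 over siControl, where the highest quartile stands apart upward.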

How the data were processed

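OVCAR3 Ribo-seq libraries (8 in 4 groups) were used as deposited. The authors assigned each footprint to 1 nucleotide and counted with Plastid, and the deposited counts cover the 5′ UTR, coding sequence, 3′ UTR and exons of regions from GENCODE release 24 on hg19 (GRCh37), after Bowtie 1.1.2 and TopHat2 2.1.1 (versions per the submitters' processing notes) with up to 64 hits per read. Per the file headers, reads of 26 to 36 nt were assigned 14 nt from the 5′ end; the methods give 12 nt from the 3′ end. Collapsing of molecular identifiers is not stated. The deposited RPKM values were used for levels per length only.

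Coding counts were fitted with DESeq2 1.42.0 (R 4.3.3), the study's tool, on the 4 libraries of each comparison, for regions with at least 10 summed counts, and called below an adjusted p (Benjamini-Hochberg) of 0.05. Normalized counts are counts over DESeq2 size factors. Genome-wide background shares use the same fits. The fit was tested on simulated data: at a log2 change of 1 it called 58% of 100 changed regions in the siTARG1 design and 72% in the RACK1 design, and at 0.5 it called 16% and 18%. Replicates differed beyond counting noise (chi-square over degrees of freedom from 1.67 to 3.26), so none was a copy.

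Alternatives were edgeR 4.0.16, TMM factors, other filters, exon counts, a replicate term, all libraries together, other length and read limits, the excluded names put back and each library left out; regions of 1 symbol only were added after seeing the data. Named members are, in siTARG1, the 8 largest rises and falls among called members whose groups do not overlap, the largest called rise and fall of each functional group, and, in both comparisons, the 5 with most reads and the 5 longest; in RACK1, the 6 with the smallest unadjusted p. Other called members named within a group were chosen after their values were seen. GC3 and 3′ UTR words were read from the member transcript with the longest coding sequence in GENCODE release 44. The members, lists and words were chosen with earlier results of these data known. Some items that the naming rule picks are not reported here.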

Additional observations from a re-analysis of the deposited data

How the results depend on the processing

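The direction of all 74 calls in siTARG1 held in every alternative fit, but their number did not. It was 124 with edgeR (70 higher and 54 lower; all 74 among them), 43 with the replicate block, 38 of 125 members at a coding length of at least 8000 nt, 12 where a log2 fold change of 1 or more in size was asked for, and 69 to 99 in the other fits of the 4 or 8 libraries. NAV2, RANBP2, FRYL, PRKDC, ABCA1 and FLNA were not called with the block. Across regions, the deviations of same-numbered libraries hardly correlated (0.03 in siTARG1 and 0.08 in RACK1). In the siRNA experiment coding counts nevertheless went with the replicate number. They were 4207939 in siControl and 4207861 in siTARG1 for replicate 1, and 3100947 and 3145173 for replicate 2. Whether same-numbered libraries were paired is thus not settled, and the fits with and without the block are both given. With 1 library left in a group, assumed to vary like the others, 19 members were called without siControl replicate 1, 32 without siControl replicate 2, 24 without siTARG1 replicate 1 and 26 without siTARG1 replicate 2, and 37 of the 74 were called in none of these fits. The 14 called in all of them include MGA, HSPG2, CNOT1, TENM3 and PLEC among the higher and CMYA5, TTC3, ZFYVE26, FAT2, MKI67 and NF1 among the lower. Members named by the stated rule and called in none were PCLO, TEX15, NAV2, NUMA1, RANBP2, FRYL, UTRN, PRKDC, ABCA1 and FLNA. Of the other called members named above, NIN, CENPE, HERC1, TRIP12, BIRC6, FN1, TNC, UTP20, POLE and ZNFX1 were also called in none. The median log2 fold change in siTARG1 ran from 0.067 to 0.101 over the leave-outs.

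The share of coding footprints differed between siTARG1 and siControl by 0.062 percentage points at a length of at least 8000 nt and by 0.17 with the excluded names put back, and by 0.209 to 0.450 with a library left out. The 5′ UTR share differed by -0.084 at 5000 nt, and by -0.053 to -0.023 over the leave-outs.

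In the RACK1 comparison 1 member was called with edgeR, with all 8 libraries in one fit and at an adjusted p under 0.1, and 2 with the excluded names put back. No leave-out called any. The median of -0.01 became 0.0049 at 8000 nt and ran from -0.023 to 0.0075 over the leave-outs. The leave-outs turned the sign of fold changes that were not called, in HUWE1 (-0.089 to 0.016), DST (-0.110 to 0.187) and MACF1 (-0.333 to 0.072). Keeping only regions of 1 symbol, chosen after seeing the data, moved no count by over 1.5 times. Members near the limit of 400 reads rest on few counts in a library, which limits what can be called there.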
